A study of Mus musculus with 23 samples.

Results

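The V617F form of the kinase JAK2 was followed in blood stem cells (HSC) that carry or lack CD41, and the quantity described here is how far its effect in CD41-positive HSC differed, gene by gene, from its effect in CD41-negative HSC. All 11 libraries labelled as a CD41 fraction were used, of 23 in the series, 6 of them CD41-negative and 5 CD41-positive. They came from bone marrow of C57BL/6 mice that were either wild type (WT) or carried SclCre;V617F, the transgenic genotype labelled SF1. In that model Cre driven by control elements of Scl, a gene of blood stem cells and endothelium, switches on the mutant Jak2. Mice of both genotypes received tamoxifen on 5 days, and their cells were sorted 12 weeks after it. Neither their age nor any Cre allele of the WT mice is stated in the labels. The cells were sorted with or without surface CD41 from a gate for HSC (Kit and Sca-1 present, CD150 present, lineage markers and CD48 absent). The groups were WT CD41-negative HSC (libraries 1, 3 and 4), V617F CD41-negative HSC (1, 2 and 3), WT CD41-positive HSC (3 and 4) and V617F CD41-positive HSC (1, 2 and 3). Library 2 of each V617F group was labelled male and the other 9 libraries female. The labels do not say whether libraries of a group came from separate mice, so p-values measure only the spread between these libraries, which may be technical.

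JAK2 relays signals from the receptors for erythropoietin, thrombopoietin and several other cytokines to STAT transcription factors, above all STAT5 in blood stem cells. V617F keeps the kinase active without a cytokine and is the commonest driver mutation of myeloproliferative neoplasms. CD41, the integrin alpha-IIb encoded by Itga2b, is a marker of the megakaryocyte lineage, and HSC that carry it are known for a bias towards platelets and myeloid cells. Whether an active JAK2 acts alike in both kinds of HSC is the question that the 4 groups allow.

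The libraries held 17.6 to 28.5 M counts, with 15819 to 16587 genes detected. Itga2b stood at 148, 232 and 181 counts per M (CPM) in WT CD41-negative libraries and 96.4, 113 and 136 in V617F ones, against 794 and 916 in WT and 743, 611 and 737 in V617F CD41-positive libraries, so the fractions did not overlap. RNA of Itga2b in CD41-negative cells is a level, not surface protein. A list of 18 granulocyte markers summed to 147 to 630 CPM in WT CD41-negative, 214 to 227 in V617F CD41-negative, 87.5 to 97.1 in WT CD41-positive and 55.8 to 144 in V617F CD41-positive libraries. None of the 18 was at 0 in every library of a group. Of the other marker lists, 15 monocyte and macrophage genes summed to 344 to 516 CPM over the 11 libraries, most of it Lyz2 (325 to 462), and 10 endothelial and stromal genes to 86.0 to 152, most of it Pecam1 (48.6 to 78.8) and Col1a2 (9.62 to 36.1), with Cdh5 at no more than 0.188. The 13 lymphoid genes in the table summed to 228 to 291 CPM in CD41-negative and 65.7 to 117 in CD41-positive libraries, most of it Ltb, Flt3 and Cd79b, while the T cell gene Cd3e was at 0 in all 11. The part of such cells in the results was not tested.

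WT CD41-negative libraries 1 and 3 stood apart from library 4. Their rank correlation across genes (Spearman) was 0.982 with each other but 0.975 and 0.967 with library 4, which in turn correlated at 0.984 to 0.986 with the 3 V617F CD41-negative libraries. Libraries 1 and 3 were both above the 9 other libraries in 2802 of 14467 genes tested (19.4%) and both below them in 2943 (20.3%). Every difference between the fractions contains this group. The counts, the lists (some without their numbers of calls) and the genes described at length are therefore also given without libraries 1 and 3. That leaves 1 WT CD41-negative library, which is then assumed to vary like the other groups. Genes of a list that vary together share that library, so their common sign in this fit is not repeated evidence.

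For most well-measured genes the effect of V617F did not differ detectably between the fractions. The difference was estimated as an interaction, the log2 change (V617F minus WT) in CD41-positive HSC minus that in CD41-negative HSC. A negative value means a lower response in CD41-positive cells, with the sign of the change counted. A higher response can thus be a smaller fall and a lower one a larger fall, so these words do not say which fraction changed more. Changes are given as log2 ± SE, and where a pair of values stands without a fraction the first is that of CD41-negative HSC. None of the 14467 genes passed by edgeR's quasi-likelihood test at a Benjamini-Hochberg adjusted p under 0.05 (0% called), and the smallest adjusted p was 0.566. All adjusted p-values given for edgeR are of this kind, over all genes tested. At an unadjusted p under 0.05 there were 1274 genes (8.81%), 779 with a higher response in CD41-positive HSC (5.38%) and 495 with a lower one (3.42%). The interaction had a median of -0.00 over all genes. Of 10640 genes with a mean of at least 10 CPM in some group, 8004 (75.2%) had a 95% interval within a 2-fold difference in either direction. Most of the 10640 passed in neither fraction, and an unchanged gene can meet this bound, so the share does not measure a common response. The bound is also wider than the median change of genes that passed in CD41-negative HSC (0.74 in size, log2). Over the 10640 genes the median standard error of the interaction was 0.23, against 0.15 for the change in CD41-negative HSC and 0.17 for that in CD41-positive HSC.

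Another count model made a few calls. DESeq2 called 6 genes, with a lower response in CD41-positive HSC for Prtn3 (adjusted p = 0.0117), Dglucy (0.0117), Lepr (0.0117), Anxa2 (0.0157) and Cftr (0.0246), and a higher one for Igf2bp2 (0.03). Limma-voom called 0, while limma-voom with sample weights called 496. The lowest weight of the 11 libraries was that of WT CD41-negative library 4 (0.21), and the next that of library 3 (0.35). Library 4 thus counted least in that fit, as it does in the next result, where it was left out. The number also turned on WT CD41-negative library 4: edgeR called 1766 genes without it and 0 when any other single library was left out. Without libraries 1 and 3 together edgeR also called 0, with 542 at an unadjusted p under 0.05. Of the 1274 genes above, 250 (19.6%) kept their direction and an unadjusted p under 0.05 without libraries 1 and 3, 114 of them higher and 136 lower, and 9 changed sign.

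Within each fraction V617F changed different numbers of genes. In CD41-negative HSC 1941 genes passed (13.4%), 793 higher (5.48%) and 1148 lower (7.94%), and in CD41-positive HSC 168 passed (1.16%), 32 higher (0.221%) and 136 lower (0.94%). The order reversed without WT libraries 1 and 3, with 145 genes in CD41-negative HSC and 380 in CD41-positive HSC. The numbers of calls therefore do not rank the fractions, over all genes or within a list. Shares of all genes beside the lists below come from the fit of all libraries. They do not apply to list counts without WT libraries 1 and 3, so those counts cannot be read as an excess or a lack. Of the genes lower in CD41-negative HSC, 788 (68.6%) had WT libraries 1 and 3 above all other libraries.

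In both fractions 129 genes passed in the same direction (0.892%), 28 higher and 101 lower, and 0 passed in opposite directions. They were 6.65% of the calls in CD41-negative HSC and 76.8% of those in CD41-positive HSC. Their median change in size was 1.46 (log2) in CD41-negative HSC and 1.80 in CD41-positive HSC, and the change was larger in CD41-positive HSC for 93 and in CD41-negative HSC for 36. Standard errors were larger in the CD41-positive fraction, so passing there took a larger change. For 40 of the 129 the interval of the interaction lay within a 2-fold difference, and for the other 89 it reached beyond. At an unadjusted p under 0.05 for the interaction there were 19. Over the 10640 genes the changes in the 2 fractions had a Pearson correlation of 0.61 and a Spearman correlation of 0.53, and of 0.72 and 0.52 without WT libraries 1 and 3. The points share depth and scaling within each library, and genes are not independent. Same-numbered V617F libraries of the 2 fractions also varied together, so the 2 sets of calls may not be independent.

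**Figure D1:**
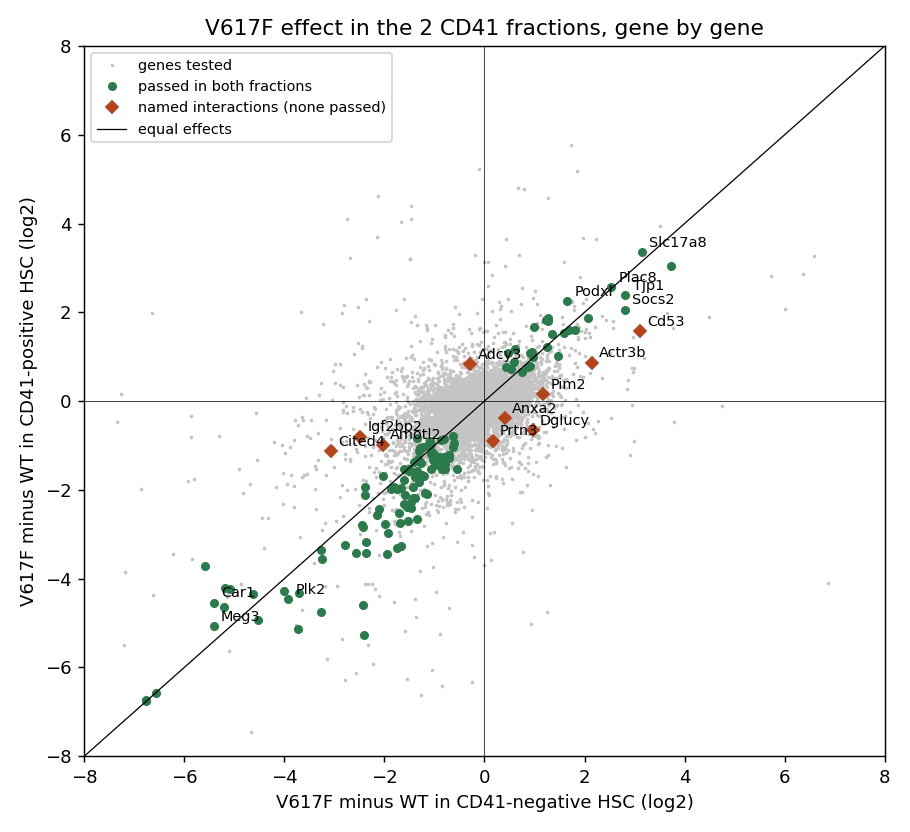
V617F minus WT (log2) in CD41-negative HSC (x axis) against CD41-positive HSC (y axis) for the genes tested (grey). Green marks genes that passed in both fractions and red marks named genes with large interactions, of which none passed, and the line marks equal effects. Socs2, Cd53, Actr3b and Pim2 lie below the line and Igf2bp2, Cited4 and Amotl2 above it.

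Among targets of JAK2 and STAT5, Socs2 rose in both fractions, while Pim2 and Cish passed in CD41-negative HSC. Socs2 (Entrez 216233, chromosome 10), a feedback inhibitor that STAT5 induces, stood at 36.2, 21.8 and 23.3 CPM in WT and 203, 215 and 149 in V617F CD41-negative libraries. In CD41-positive HSC it stood at 24.3 and 21.8 in WT and 90.7, 112 and 85.8 in V617F libraries. WT levels were alike in both fractions, every V617F library was above every WT library, and all V617F CD41-negative libraries were above the V617F CD41-positive ones. Socs2 rose by 2.80 ± 0.21 (log2, SE; adjusted p = 3.21e-05) in CD41-negative and by 2.06 ± 0.24 (adjusted p = 0.0015) in CD41-positive HSC. The interaction was -0.74 (95% interval -1.38 to -0.11, unadjusted p = 0.0256), and -0.95 without WT CD41-negative libraries 1 and 3.

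Pim2 (Entrez 18715, chromosome X), a survival kinase under STAT5 control, stood at 57.6, 71.3 and 74.7 CPM in WT and 145, 157 and 157 in V617F CD41-negative libraries, against 71.4 and 55.0 in WT and 59.8, 90.8 and 59.9 in V617F CD41-positive libraries. V617F and WT were separate in CD41-negative HSC and overlapped in CD41-positive HSC, where library 2, the male one, was the highest. Pim2 rose in CD41-negative HSC (1.17 ± 0.17, adjusted p = 0.00339) and its change in CD41-positive HSC was 0.15 ± 0.19 (adjusted p = 0.83). The interaction was -1.02 (-1.57 to -0.47, unadjusted p = 0.00152), and -0.88 without WT libraries 1 and 3. Pim2 is X-linked and was named only through its gene list and the fixed set, and it is described in full after its values were seen.

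Cish (Entrez 12700, chromosome 9), another STAT5-induced feedback inhibitor, stood at 79.5, 111 and 76.9 CPM in WT and 163, 248 and 163 in V617F CD41-negative libraries, against 68.4 and 52.0 in WT and 65.8, 124 and 80.5 in V617F CD41-positive libraries. In CD41-positive HSC V617F library 1 was within the WT range. Cish rose by 1.10 ± 0.24 in CD41-negative HSC (adjusted p = 0.0201), its change in CD41-positive HSC was 0.58 ± 0.27 (adjusted p = 0.484), and the interval of the interaction, -1.30 to 0.26, included 0 (value -0.52, and -0.73 without WT libraries 1 and 3). The promoters of Cish and Pim2 are shown because both genes rose in CD41-negative HSC and did not pass in CD41-positive HSC. The sequences are RefSeq's on GRCm38.p6, from 250 bases before to 50 after the gene's start, at chr9:107296409-107296708 (plus strand) and chrX:7878056-7878355 (plus strand). Capitals mark TTCNNNGAA, the core of the STAT5 motif, which reads the same on both strands.
Cish: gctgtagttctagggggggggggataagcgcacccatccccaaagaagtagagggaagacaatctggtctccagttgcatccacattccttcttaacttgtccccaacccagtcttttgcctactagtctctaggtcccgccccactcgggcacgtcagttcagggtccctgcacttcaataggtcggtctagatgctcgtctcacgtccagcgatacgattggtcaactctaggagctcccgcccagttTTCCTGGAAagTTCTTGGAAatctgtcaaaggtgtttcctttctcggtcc
Pim2: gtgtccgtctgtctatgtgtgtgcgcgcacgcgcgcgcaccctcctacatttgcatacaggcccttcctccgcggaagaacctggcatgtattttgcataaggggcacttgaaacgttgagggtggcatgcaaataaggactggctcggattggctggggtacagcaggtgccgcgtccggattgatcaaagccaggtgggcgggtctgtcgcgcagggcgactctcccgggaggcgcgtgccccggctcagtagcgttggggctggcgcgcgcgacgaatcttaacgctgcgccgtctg
The Cish window held 2 matches, which did not overlap, and the Pim2 window 0. Of 32851 promoters of this length 8.3% held at least 1 match and 0.457% held 2 or more. Of the 18 tested members of the list of JAK-STAT feedback and target genes, 12 had a promoter in the table and 3 of these (Bcl6, Cish and Socs3) held a match in at least 1 promoter. A match is a run of letters, not a measured binding site.

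Of those 18 genes, 5 rose (27.8%, against 5.48% of all genes) and 5 fell (27.8% against 7.94%) in CD41-negative HSC, 2 rose and 2 fell in CD41-positive HSC, and 4 passed in both. The interaction was below 0 for 9 and above 0 for 9, with a median of 0.02, and at an unadjusted p under 0.05 it was lower for 5 and higher for 1. Without WT libraries 1 and 3, 2 rose and 3 fell in CD41-negative HSC and 2 rose and 5 fell in CD41-positive HSC. In that fit 14 of the 18 interactions were below 0, with a median of -0.25 against 0.03 over all genes. Besides Pim2 and Socs2, the 5 were Socs3, a feedback inhibitor of STAT3 signalling (-0.94, unadjusted p = 0.0231), the cytokine Osm (-0.65, 0.0406) and the kinase Pim1 (-0.55, 0.0486), and without WT libraries 1 and 3 these came to -1.15, -0.88 and -0.76. Bcl6, a repressor that STAT5 turns down, fell in both fractions, with changes of -1.74 ± 0.31 and -1.98 ± 0.37. Id1, an inhibitor of differentiation factors, rose in both, by 1.28 ± 0.30 in CD41-negative HSC and 1.87 ± 0.34 in CD41-positive HSC. Without WT libraries 1 and 3 neither passed in CD41-negative HSC, with changes of -1.39 (adjusted p = 0.141) and 1.92 (adjusted p = 0.05).

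The RNA level of Jak2 itself differed little between groups. It stood at 238, 185 and 228 CPM in WT and 219, 258 and 232 in V617F CD41-negative libraries, against 165 and 193 in WT and 209, 193 and 174 in V617F CD41-positive ones, and the groups overlapped in each fraction. Its interaction was -0.03 (95% interval -0.45 to 0.40; 0.05 without WT libraries 1 and 3). These counts do not tell the mutant from the normal transcript. Among 15 receptors that signal through JAK2, Csf2rb, the shared beta chain of the receptors for IL-3, IL-5 and GM-CSF, rose in both fractions, by 1.27 ± 0.25 and 1.80 ± 0.30. The erythropoietin receptor Epor passed in CD41-negative HSC (-1.17 ± 0.27, adjusted p = 0.0226), with -0.11 ± 0.29 in CD41-positive HSC and an interaction of 1.06 (unadjusted p = 0.0187; 1.24 without WT libraries 1 and 3). The leptin receptor Lepr had the interaction with the largest size among genes that DESeq2 called, -5.99 (-8.66 to -3.32). It stood at 2.69 and 2.24 CPM in WT and 0.285, 0 and 0 in V617F CD41-positive libraries, with the CD41-negative libraries between 0.201 and 1.2, so the value rests on few counts.

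The 8 genes named among those that rose in both fractions had interactions from -0.74 for Socs2 to 0.60 for Podxl. Slc17a8, a vesicular glutamate transporter, stood at 6.97, 4.21 and 6.75 CPM in WT and 54.5, 45.8 and 58.9 in V617F CD41-negative libraries, and at 4.16 and 4.27 in WT and 44.7, 44.1 and 40.4 in V617F CD41-positive libraries. All V617F libraries lay at least 5-fold above all WT libraries. It rose by 3.15 ± 0.19 (adjusted p = 8.18e-06) and 3.35 ± 0.23 (1.76e-05), with an interaction of 0.21 (-0.39 to 0.80; 0.39 without WT libraries 1 and 3). Plac8, a small cysteine-rich protein of myeloid cells, stood at 17.3, 21.7 and 44.6 in WT and 214, 94.3 and 175 in V617F CD41-negative libraries, and at 30.5 and 26.6 in WT and 223, 122 and 159 in V617F CD41-positive ones. The V617F libraries were above the WT ones in each fraction and spread widely, and the interaction of 0.03 had an interval of -1.11 to 1.16 (0.71 without those libraries). The tight-junction scaffold Tjp1 rose by 2.82 ± 0.23 and 2.38 ± 0.26, and the sialomucin Podxl by 1.66 ± 0.22 and 2.25 ± 0.26. Their intervals for the interaction, -1.15 to 0.27 and -0.10 to 1.29, included 0. Without WT libraries 1 and 3 Tjp1 went from -0.44 to -0.91 (unadjusted p = 0.0257) and Podxl from 0.60 to 0.34 (unadjusted p = 0.396). The phospholipid scramblase Plscr2 and the matrix glycoprotein Emilin2 had interactions of -0.06 (-0.64 to 0.52; 0.33 without WT libraries 1 and 3) and 0.16 (-0.40 to 0.73; 0.06 without them). The gelatinase Mmp2 rose by 1.81 ± 0.29 and 1.60 ± 0.35, though its CD41-positive levels were lower in both genotypes.

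**Figure D2:**
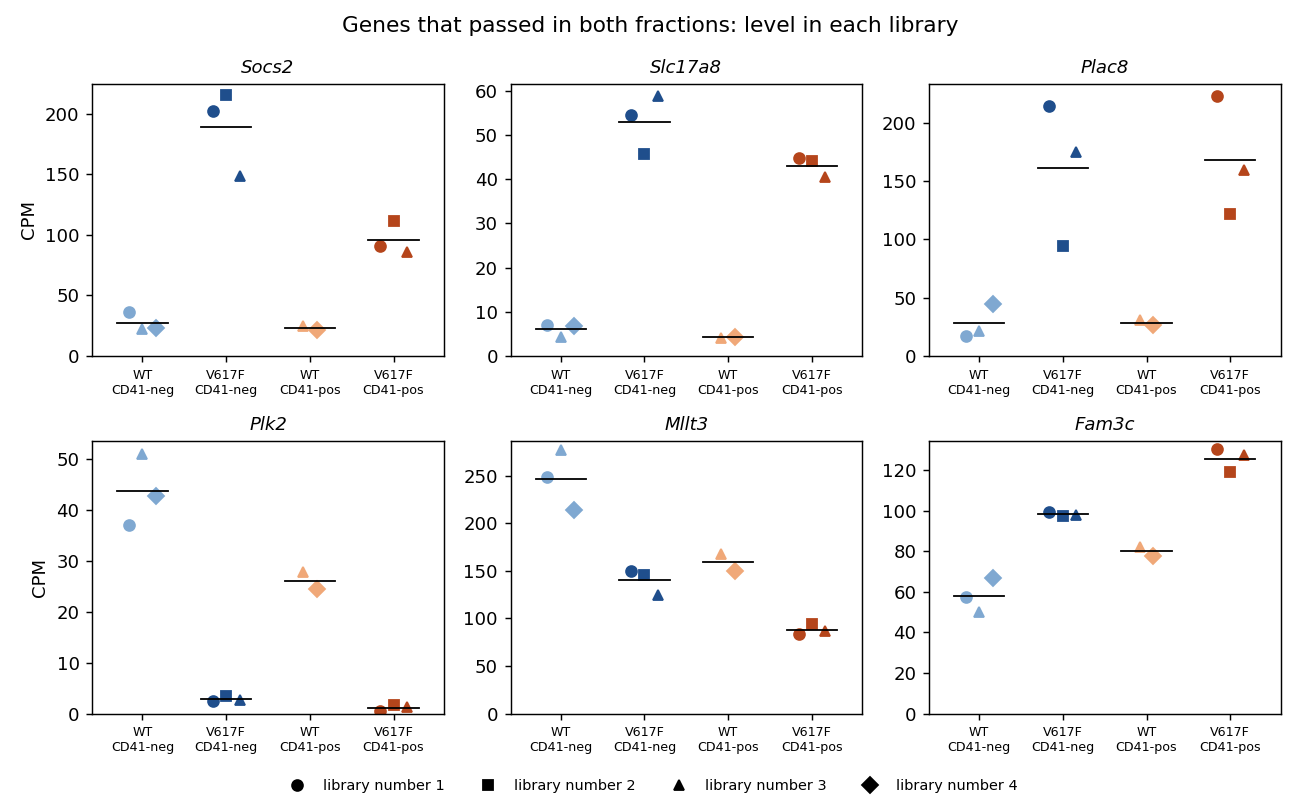
Level (CPM, linear axis from 0) in each of the 11 libraries for 6 genes that passed in both fractions, with points for libraries, shapes for the library number and lines for group means. Each V617F group lies apart from its WT group for all 6 genes, and in the same direction in CD41-negative and CD41-positive HSC.

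Genes that fell in both fractions included several of the red cell lineage. Plk2, a stress-response kinase, stood at 37.1, 50.9 and 42.8 CPM in WT and 2.38, 3.51 and 2.75 in V617F CD41-negative libraries, and at 27.7 and 24.4 in WT and 0.569, 1.60 and 1.31 in V617F CD41-positive libraries. The genotypes were separate in each fraction by 10-fold or more. Plk2 fell by 3.93 ± 0.26 in CD41-negative HSC and fell by 4.47 ± 0.30 in CD41-positive HSC, with an interaction of -0.54 (-1.39 to 0.31; -0.56 without WT libraries 1 and 3). The red cell carbonic anhydrase Car1 stood at 18.4, 80.2 and 101 in WT and 1.93, 0.944 and 1.77 in V617F CD41-negative libraries, and at 19.5 and 27.3 in WT and 0.285, 1.15 and 1.5 in V617F CD41-positive ones. WT CD41-negative library 1 was the lowest of its group, and every V617F library was below every WT library. Car1 fell by 5.40 ± 0.60 in CD41-negative HSC and fell by 4.54 ± 0.65 in CD41-positive HSC, and its interaction of 0.86 had an interval of -1.03 to 2.75 (1.47, unadjusted p = 0.0331, without WT libraries 1 and 3). Ermap and Rhd, both of the red cell membrane, changed by -5.19 and -5.58 in CD41-negative and by -4.21 and -3.72 in CD41-positive HSC. Hba-a1 and Hba-a2, the alpha-globin genes, are near-identical copies whose counts cannot be told apart. Hba-a1 stood at 0.441, 0.0450 and 0.282 CPM in V617F CD41-negative and 0, 0.199 and 0.234 in V617F CD41-positive libraries, against 49.2, 20.6 and 19.9 and 30.4 and 3.49 in WT. The imprinted non-coding RNA Meg3 fell by 5.41 ± 0.41 in CD41-negative HSC and fell by 5.07 ± 0.50 in CD41-positive HSC, and Cyp26b1, which breaks down retinoic acid, fell by 5.08 ± 0.39 in CD41-negative HSC and fell by 4.24 ± 0.47 in CD41-positive HSC.

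The narrowest intervals among the shared calls belonged to Mllt3, Fam3c, Rgcc and Fam43a. Mllt3, a regulator of HSC maintenance, stood at 248, 277 and 214 CPM in WT and 150.3, 146 and 125 in V617F CD41-negative libraries, and at 168 and 149.7 in WT and 83.7, 93.6 and 86.6 in V617F CD41-positive ones. The genotypes were separate in each fraction. Mllt3 fell by 0.81 ± 0.12 in CD41-negative HSC and fell by 0.85 ± 0.14 in CD41-positive HSC, and the interaction of -0.04 lay between -0.44 and 0.36 (-0.24 without WT libraries 1 and 3). Fam3c, a secreted factor, and Rgcc, a cell cycle regulator, rose with interactions of -0.11 (-0.47 to 0.26; 0.10 without WT libraries 1 and 3) and -0.12 (-0.55 to 0.31; -0.08 without them). Fam43a fell by 0.63 ± 0.12 in CD41-negative HSC and fell by 1.03 ± 0.13 in CD41-positive HSC, and its interaction of -0.40 (-0.78 to -0.01) excluded 0 at the unadjusted level while lying within a 2-fold difference (-0.56 without WT libraries 1 and 3).

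Among genes with a lower response in CD41-positive HSC, the smallest unadjusted p was that of Prtn3 (Entrez 19152, chromosome 10), proteinase 3 of neutrophil granules, which early myeloid progenitors also express. It stood at 104, 102 and 117 CPM in WT and 136, 103 and 122 in V617F CD41-negative libraries, and at 81.9 and 73.1 in WT and 40.7, 47.5 and 36.7 in V617F CD41-positive libraries. The genotypes overlapped in CD41-negative HSC and were separate in CD41-positive HSC, where the V617F libraries were the lowest of all 11. Prtn3 fell by 0.90 ± 0.15 in CD41-positive HSC (adjusted p = 0.0114), with 0.16 ± 0.13 in CD41-negative HSC, and the interaction was -1.06 ± 0.20 (-1.48 to -0.63, unadjusted p = 0.000134). Without WT libraries 1 and 3 it was -0.93 (unadjusted p = 0.00134). Of the other 14 granulocyte markers tested, 12 had an interaction above 0, 7 of them with an unadjusted p under 0.05, and Gfi1 (-0.87) and Ms4a3 (-0.52) ran the same way as Prtn3 without reaching it. S100a8, for example, stood at 103, 2.46 and 8.51 CPM in the WT CD41-negative libraries, with library 1 far above the others, and at 12.8, 0.847 and 11.5 in the V617F CD41-positive ones. Without WT libraries 1 and 3, 9 of the 14 were above 0, 2 of them with an unadjusted p under 0.05, and 5 were below 0.

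Dglucy (Entrez 217830, chromosome 12), the mitochondrial D-glutamate cyclase, had changes of opposite sign, of which that in CD41-negative HSC passed. It stood at 7.82, 10.9 and 8.01 CPM in WT and 18.2, 15.7 and 18.3 in V617F CD41-negative libraries, and at 3.08 and 2.84 in WT and 1.82, 2.19 and 1.59 in V617F CD41-positive libraries. V617F was above WT throughout the CD41-negative fraction and below it throughout the CD41-positive one. Dglucy rose in CD41-negative HSC (0.96 ± 0.19, adjusted p = 0.0136), was -0.66 ± 0.24 in CD41-positive HSC (adjusted p = 0.293), and had an interaction of -1.63 (-2.29 to -0.96, unadjusted p = 0.000149; -1.77 without WT libraries 1 and 3). Anxa2 (Entrez 12306, chromosome 9), a calcium-dependent membrane-binding protein, stood at 32.5, 31 and 32.9 in WT and 44.4, 40.0 and 42.9 in V617F CD41-negative libraries, and at 24.5 and 23.4 in WT and 18.7, 17.9 and 18.4 in V617F CD41-positive ones. Its 4 groups did not overlap. Anxa2 rose by 0.40 ± 0.11 in CD41-negative HSC (adjusted p = 0.0383) and was -0.39 ± 0.13 in CD41-positive HSC (adjusted p = 0.216), with an interaction of -0.79 (-1.15 to -0.42; -0.74 without WT libraries 1 and 3).

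The next genes in that direction differed in which fraction carried the change. Lincred1, a long non-coding RNA, fell in CD41-positive HSC (-1.07 ± 0.14, adjusted p = 0.00221), with -0.30 ± 0.13 in CD41-negative HSC. Actr3b, an actin-related protein of the Arp2/3 family, rose in CD41-negative HSC (2.14 ± 0.22, adjusted p = 0.00039), with 0.87 ± 0.24 in CD41-positive HSC. Tgfbi, a matrix protein induced by TGF-beta, rose in CD41-negative HSC (0.59 ± 0.13, adjusted p = 0.0196), with -0.15 ± 0.14 in the other fraction. The cyclic GMP phosphodiesterase Pde9a and the antisense transcript Plxna4os1, whose strand the counts may not resolve, had changes of 0.45 and 0.36 in CD41-negative HSC and -0.89 and -0.54 in CD41-positive HSC, of which none passed. The 5 interactions ran from -1.34 for Pde9a to -0.74 for Tgfbi, and from -1.36 for Actr3b to -0.65 for Lincred1 without WT libraries 1 and 3.

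Among genes with a higher response in CD41-positive HSC, Igf2bp2 (Entrez 319765, chromosome 16), an RNA-binding protein of stem and progenitor cells, had the smallest unadjusted p. It stood at 16.3, 19.8 and 18.4 CPM in WT and 3.97, 2.52 and 3.21 in V617F CD41-negative libraries, and at 20.8 and 16.4 in WT and 12.4, 6.78 and 12.8 in V617F CD41-positive libraries. WT levels were alike in both fractions, and the V617F libraries of CD41-negative HSC were the lowest 3 of the 11. Igf2bp2 fell by 2.48 ± 0.26 in CD41-negative HSC (adjusted p = 0.00039) and was -0.80 ± 0.27 in CD41-positive HSC (adjusted p = 0.235). The interaction was 1.68 ± 0.37 (0.87 to 2.49, unadjusted p = 0.000628), and 1.71 without WT libraries 1 and 3.

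Amotl2, an angiomotin-family protein of the Hippo pathway, fell in both fractions but further in CD41-negative HSC. It stood at 18.1, 20.5 and 17.7 CPM in WT and 3.87, 5.26 and 4.62 in V617F CD41-negative libraries, and at 36.7 and 36.6 in WT and 13.7, 22.5 and 19.6 in V617F CD41-positive ones. WT levels were higher in CD41-positive HSC, and V617F lay below WT in each fraction. It fell by 2.04 ± 0.20 (adjusted p = 0.000278) and fell by 0.98 ± 0.20 (0.0401), with an interaction of 1.06 (0.44 to 1.68, unadjusted p = 0.00277; 0.98 without WT libraries 1 and 3). Adcy3, an adenylate cyclase, stood at 32.7, 24.9 and 21.9 in WT and 19.2, 21.5 and 24.6 in V617F CD41-negative libraries, which overlapped, and at 9.39 and 9.35 in WT and 17.1, 18.3 and 14.7 in V617F CD41-positive ones, which did not. Its changes of -0.28 ± 0.17 and 0.83 ± 0.20 did not pass (adjusted p = 0.248 and 0.0776), and the interaction was 1.11 (0.54 to 1.69; 0.85 without WT libraries 1 and 3).

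**Figure D3:**
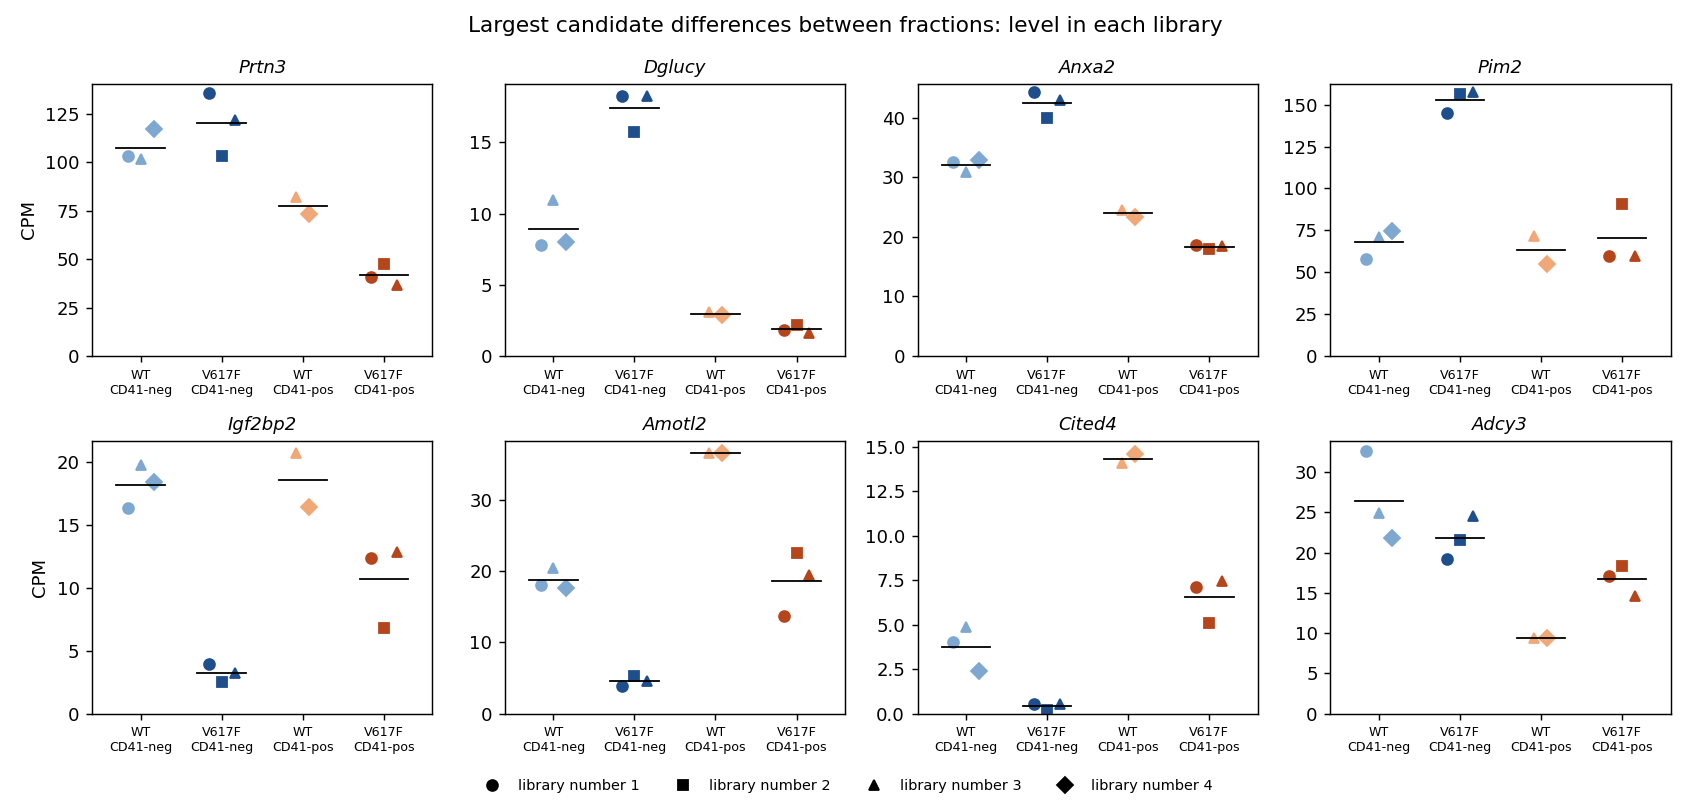
Level (CPM, linear axis from 0) in each of the 11 libraries for 8 genes with large interactions, points and shapes for libraries and lines for group means. Prtn3 is lowest in V617F CD41-positive libraries (36.7 to 47.5 CPM), Pim2 is high in V617F CD41-negative libraries alone (145 to 157 CPM), and Igf2bp2 is lowest in V617F CD41-negative libraries (2.52 to 3.97 CPM).

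In the other 4 genes that the rule named in that direction WT CD41-negative libraries 1 and 3 were the highest of all 11. Mir6236, a microRNA gene by annotation, stood at 1012, 856 and 59.2 CPM in the WT CD41-negative libraries and between 49.6 and 63.5 CPM in all libraries of the other groups. Cic, a transcriptional repressor, stood at 134, 178 and 43.3 in the WT CD41-negative libraries and between 29.0 and 39.9 elsewhere. In both genes library 4 was near the other groups and libraries 1 and 3 were far above. The septin gene Sept9 and the formin Diaph3 followed the same order, with 282, 276 and 114 and 50.4, 52.3 and 18.4 CPM in the WT CD41-negative libraries. Their interactions were 3.63 (Mir6236), 1.98 (Cic), 1.40 (Sept9) and 1.63 (Diaph3). Without libraries 1 and 3 they were 0.20 (unadjusted p = 0.338), 0.53 (0.0447), 0.42 (0.0122) and 0.51 (0.0319), in the same order, so all 4 were smaller and 3 kept an unadjusted p under 0.05. Of the 779 genes with a higher response in CD41-positive HSC, 447 (57.4%) had both libraries above the 9 others, and of the 495 with a lower response, 151 (30.5%) had both below.

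**Figure D4:**
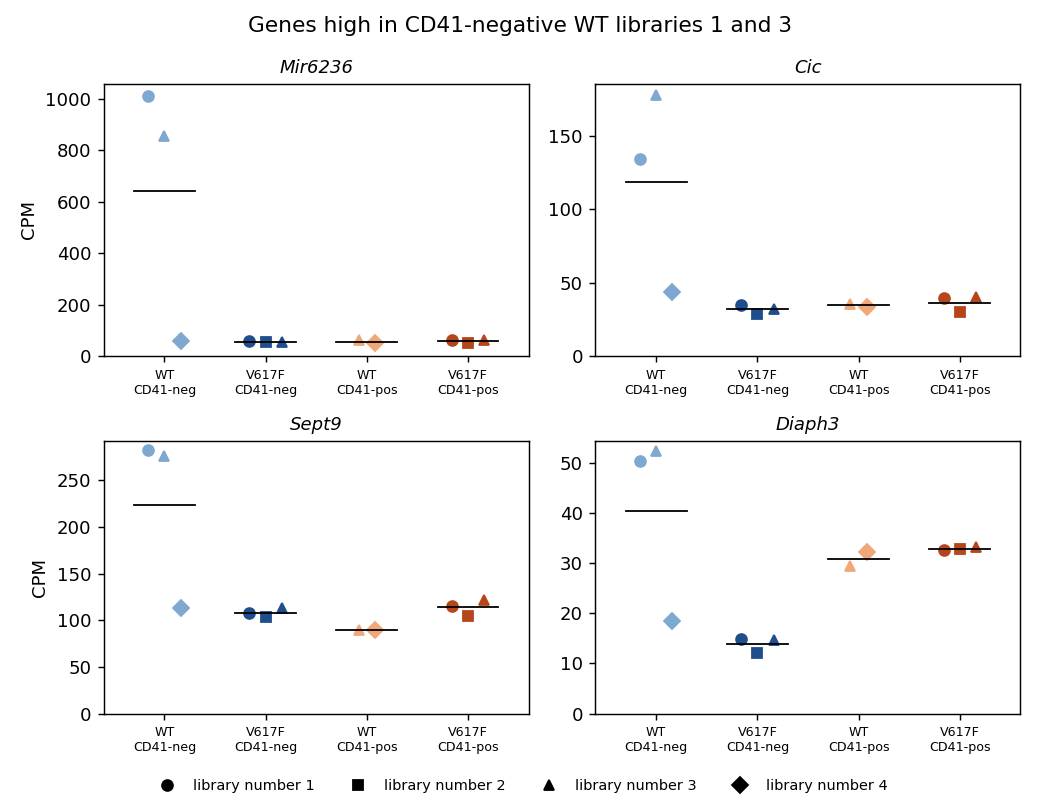
Level (CPM, linear axis from 0) in each of the 11 libraries for Mir6236, Cic, Sept9 and Diaph3, points and shapes for libraries and lines for group means. In each panel WT CD41-negative libraries 1 and 3 lie far above library 4, which lies near the V617F CD41-negative libraries.

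A few genes had opposite signs with an unadjusted p under 0.05 in each fraction, 13 in all against 837 with the same sign. Besides Dglucy, Anxa2 and Plxna4os1 the rule named Cd38, Sergef and Rbbp4. Cd38, an NAD-consuming ectoenzyme, stood at 8.68, 9.85 and 17.0 CPM in WT and 17.1, 22.2 and 12.9 in V617F CD41-negative libraries, and at 30.4 and 26.8 in WT and 17.0, 16.6 and 17.7 in V617F CD41-positive ones. The V617F libraries of CD41-positive HSC were below WT, and those of CD41-negative HSC overlapped with WT. Its interaction was -1.30 (-2.09 to -0.50; -0.77 without WT libraries 1 and 3). Sergef, a relative of nucleotide exchange factors, and Rbbp4, a histone-binding subunit of chromatin complexes, had interactions of 0.81 and 1.06, and 0.57 and 0.49 without those libraries.

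Of 26 genes of the red cell lineage, 15 fell in CD41-negative HSC (57.7%, against 7.94% of all genes) and 5 in CD41-positive HSC (19.2% against 0.94%), and all 5 were among the 15. Fewer passed in CD41-negative and more in CD41-positive HSC without WT CD41-negative libraries 1 and 3. Without those libraries the list's median changes were -1.355 and -0.389, against -1.145 and -0.388 with all libraries. The interaction was above 0 for 22, with a median of 0.77 against -0.00 over all genes, and at an unadjusted p under 0.05 it was higher for 6 (23.1% against 5.38%) and lower for 0. In the fit without WT libraries 1 and 3 it was above 0 for 20, with a median of 1.06, and it was higher at an unadjusted p under 0.05 for 11. The list's summed level was 2914 to 5116 CPM in WT and 2588 to 2761 in V617F CD41-negative libraries, and 3568 to 3700 and 3322 to 3643 in CD41-positive ones. Some macrophage genes also fell in CD41-negative HSC. Of 14 monocyte and macrophage markers tested, 5 fell in that fraction (35.7%, against 7.94% of all genes) and 2, Cd68 and Ms4a6c, rose (14.3% against 5.48%). In CD41-positive HSC 1 fell (7.14% against 0.94%), Vcam1, with a change of -5.27 (adjusted p = 0.00164). The list's median change in CD41-negative HSC was -0.98, and -0.45 without WT libraries 1 and 3. The 5 that fell in CD41-negative HSC were the complement genes C1qa (-4.32, adjusted p = 0.00704), C1qb (-3.34, 0.00548) and C1qc (-3.37, 0.00594), Adgre1 (adjusted p = 0.0228) and the adhesion molecule Vcam1 (-2.40, 0.00847), all at 5.91 CPM or less in every library. Adgre1, the macrophage marker F4/80, was at 0 in the 3 V617F CD41-negative libraries. The interaction had an unadjusted p under 0.05 for C1qb (2.02, 0.0253), C1qc (1.84, 0.0494) and Adgre1, above 0 like most of the red cell genes, and for Vcam1 (-2.87, 0.00417) and Cd68 (-0.57, 0.0348), below 0. Without WT libraries 1 and 3 these interactions came to 2.16 for C1qb, 1.5 for C1qc, -2.89 for Vcam1 and -0.54 for Cd68. The changes in CD41-negative HSC were then -3.58 (C1qa), -3.48 (C1qb), -3.04 (C1qc), -2.39 (Vcam1) and 0.73 (Cd68). Fewer markers of the list passed in CD41-negative HSC in that fit, in either direction. The marker list summed to 435 to 516 CPM in WT and 434 to 478 in V617F CD41-negative libraries, and to 385 to 400.0 and 344 to 380 in CD41-positive ones, and its part in the red cell result was not tested. In bulk libraries fewer cells of a type and less RNA per cell cannot be told apart.

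Klf1, the master regulator of late red cell genes, stood at 4.90, 17.9 and 22.4 CPM in WT and 3.12, 3.28 and 4.70 in V617F CD41-negative libraries, and at 29.9 and 26.0 in WT and 29.3, 23.2 and 34.4 in V617F CD41-positive ones. WT CD41-negative library 1 was near the V617F libraries, and the genotypes overlapped in CD41-positive HSC. Klf1 fell by 2.02 ± 0.42 in CD41-negative HSC (adjusted p = 0.0159) and was 0.05 ± 0.43 in CD41-positive HSC, with an interaction of 2.08 (0.77 to 3.38; 2.66 without WT libraries 1 and 3). Cited4, a transcriptional co-regulator, stood at 4.05, 4.87 and 2.37 in WT and 0.543, 0.180 and 0.565 in V617F CD41-negative libraries, and at 14.1 and 14.6 in WT and 7.12, 5.08 and 7.45 in V617F CD41-positive ones. V617F lay below WT in each fraction. It fell by 3.07 ± 0.38 in CD41-negative HSC, was -1.13 ± 0.33 in CD41-positive HSC (adjusted p = 0.15), and had an interaction of 1.94 (1.28 without WT libraries 1 and 3). The water channel Aqp1 and the reductase Blvrb fell in CD41-negative HSC, with changes of -1.62 ± 0.36 and -0.73 ± 0.18, and had interactions of 1.22 and 0.59 (1.58 and 0.94 without WT libraries 1 and 3).

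Of 30 megakaryocyte and platelet genes tested, 1 rose (3.33%, against 5.48% of all genes) and 10 fell (33.3% against 7.94%) in CD41-negative HSC and 0 passed in CD41-positive HSC. The interaction had a median of 0.24 and was above 0 for 18, with 2 higher and 1 lower at an unadjusted p under 0.05 (6.67% and 3.33%, near the 5.38% and 3.42% of all genes), and without WT libraries 1 and 3 the median was 0.19. In that fit 2 rose and 2 fell in CD41-negative HSC and 1 rose and 2 fell in CD41-positive HSC. Zfpm1, the GATA1 partner FOG1, fell in CD41-negative HSC (-1.85 ± 0.30, adjusted p = 0.00617), with -0.37 ± 0.33 in CD41-positive HSC. Its interaction was 1.48 (unadjusted p = 0.00577) and 0.87 without WT libraries 1 and 3. The thrombin receptor F2r stood at 127, 152 and 179.7 CPM in WT and 355, 381 and 369 in V617F CD41-negative libraries, and at 491 and 431 in WT and 867, 653 and 757 in V617F CD41-positive ones. V617F was above WT in each fraction. F2r rose by 1.27 ± 0.15 in CD41-negative HSC (adjusted p = 0.00112), was 0.72 ± 0.17 in CD41-positive HSC (adjusted p = 0.0767), and had an interaction of -0.55 (-0.31 without WT libraries 1 and 3). Vwf, von Willebrand factor, fell by 0.87 ± 0.19 in CD41-negative HSC and was -0.33 ± 0.21 in CD41-positive HSC, with an interaction of 0.55 (-0.07 to 1.16; 0.17 without WT libraries 1 and 3).

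Of 39 interferon-response genes, 4 fell in CD41-negative HSC (10.3%, near the 7.94% of all genes) and 3 in CD41-positive HSC (7.69% against 0.94%), and 0 passed in both. These numbers of calls depended on WT CD41-negative libraries 1 and 3, with fewer in CD41-negative and more in CD41-positive HSC without them. Without those libraries the list's median changes were -0.44 and -0.51, against -0.28 and -0.51 with all libraries. The interaction was below 0 for 31, with a median of -0.36, and at an unadjusted p under 0.05 it was lower for 6 (15.4% against 3.42%) and higher for 1. When WT libraries 1 and 3 were left out it was below 0 for 28, with a median of -0.14, and lower for 2. Ifi44, an interferon-induced protein, stood at 62.7, 76.4 and 120.4 CPM in WT and 88.6, 75.7 and 101 in V617F CD41-negative libraries, and at 85.0 and 66.0 in WT and 30.3, 32.5 and 41.8 in V617F CD41-positive ones. The genotypes overlapped in CD41-negative HSC, where WT libraries 1 and 3 were below library 4, and were separate in CD41-positive HSC. Ifi44 fell by 1.11 ± 0.24 in CD41-positive HSC (adjusted p = 0.0481), with 0.03 ± 0.22 in CD41-negative HSC. Its interaction was -1.14 (-1.85 to -0.44) and -0.66 without libraries 1 and 3. The antiviral GTPase Mx2 fell by 1.69 ± 0.34 in CD41-positive HSC, with -0.43 ± 0.28 in CD41-negative HSC. Rtp4, an interferon-induced chaperone, had an interaction of -1.17, and -0.65 without libraries 1 and 3.

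Of 11 guanylate-binding proteins tested, which are interferon-induced GTPases, 6 fell in each fraction (54.5%, against 7.94% and 0.94% of all genes), the same 6 genes. The match of calls between the fractions depended on WT CD41-negative libraries 1 and 3, as fewer passed in CD41-negative HSC without them. Without those libraries the list's median changes were -0.995 and -1.205, against -0.713 and -1.204 with all libraries. The interaction was below 0 for 10 in the fit of all libraries and for 10 without WT libraries 1 and 3, with medians of -0.49 and -0.25. Gbp9 stood at 60.7, 57.9 and 60.4 CPM in WT and 19.0, 21.4 and 24.5 in V617F CD41-negative libraries, and at 25.6 and 14.6 in WT and 3.70, 3.24 and 5.39 in V617F CD41-positive ones. The genotypes were separate in each fraction, and levels were lower in CD41-positive HSC. It fell by 1.46 ± 0.21 in CD41-negative HSC and fell by 2.28 ± 0.25 in CD41-positive HSC, with an interaction of -0.82 (-1.53 to -0.11; -0.79 without those libraries). Several of these genes lie side by side on chromosome 5 as close copies, and how reads were shared between them is not given in the sources used here.

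Of 32 DNA replication genes, 3 rose in CD41-negative HSC (9.38%, against 5.48% of all genes) and 0 in CD41-positive HSC (0.221% of all genes), and without WT CD41-negative libraries 1 and 3 the numbers were 0 and 6. Their interaction had a median of 0.19 and was above 0 for 24, with 5 higher at an unadjusted p under 0.05 (15.6% against 5.38%). Without WT libraries 1 and 3 the median was 0.26, against 0.03 over all genes. The interaction was then above 0 for all 32, and for 7822 of 14422 genes, with 1 library setting the WT CD41-negative level. Rfc5, a clamp loader subunit, stood at 141, 143 and 110.1 CPM in WT and 116, 110.2 and 111 in V617F CD41-negative libraries, and at 187 and 205 in WT and 255, 236 and 263 in V617F CD41-positive ones. Its V617F libraries were above WT in CD41-positive HSC and within the WT range in CD41-negative HSC, with an interaction of 0.59 (0.21 to 0.97; 0.34 without WT libraries 1 and 3). Of 30 mitosis genes, 8 rose in CD41-negative HSC (26.7%), or 0 without those libraries, and 0 rose in CD41-positive HSC in either fit, while 0 had an unadjusted p under 0.05 for the interaction. Their median interaction was -0.13, and 0.16 without WT libraries 1 and 3, so its sign turned on those libraries. Of 38 oxidative phosphorylation genes the median was 0.06, with 3 higher at an unadjusted p under 0.05 (7.89% against 5.38%). Without the same libraries it was 0.22, with all 38 above 0, and it rests on the same 1 library.

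Of 22 genes of cholesterol synthesis and uptake, 7 rose in CD41-negative HSC (31.8%, against 5.48% of all genes) and 0 passed in CD41-positive HSC. Without WT CD41-negative libraries 1 and 3, 1 rose in each fraction. The median interaction was -0.10, with 2 lower at an unadjusted p under 0.05, and -0.04 with 1 lower without WT libraries 1 and 3. Hmgcs1, which makes the HMG-CoA of the pathway, stood at 50.5, 46.9 and 56.9 CPM in WT and 98.7, 117 and 108 in V617F CD41-negative libraries, and at 55.6 and 59.5 in WT and 63.1, 87.5 and 81.6 in V617F CD41-positive ones. V617F was above WT in each fraction, by a wider gap in CD41-negative HSC. Hmgcs1 rose by 1.07 ± 0.14 in CD41-negative HSC (adjusted p = 0.00144), was 0.43 ± 0.15 in CD41-positive HSC (adjusted p = 0.277), and had an interaction of -0.64 (-0.49 without WT libraries 1 and 3).

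Genes of stem cell self-renewal and quiescence had a median interaction near that of all genes. Of 32 tested, 9 fell in CD41-negative HSC (28.1%, against 7.94% of all genes) and 4 in CD41-positive HSC (12.5% against 0.94%), all 4 among the 9. The order of these numbers of calls reversed without WT CD41-negative libraries 1 and 3. Without those libraries the list's median changes were -0.23 and -0.35, against -0.31 and -0.35 with all libraries. The median interaction was -0.01, and for 20 of the 32 the interval of the interaction lay within a 2-fold difference. Among 18 genes of adhesion and the niche, 7 rose (38.9%, against 5.48% of all genes) and 1 fell in CD41-negative HSC, and 3 rose and 3 fell in CD41-positive HSC (16.7% each, against 0.221% and 0.94%). Leaving out WT libraries 1 and 3, 4 rose and 1 fell in CD41-negative HSC, and 4 rose and 3 fell in CD41-positive HSC. The median interaction was -0.16, and -0.24 without WT libraries 1 and 3, with 5 and 2 lower at an unadjusted p under 0.05. Cd53, a tetraspanin of leukocytes, stood at 11.8, 13.7 and 16.9 CPM in WT and 169.8, 104 and 92.4 in V617F CD41-negative libraries, and at 3.08 and 2.63 in WT and 7.97, 12.1 and 5.44 in V617F CD41-positive ones. V617F was above WT in each fraction, with far higher levels in CD41-negative HSC. Cd53 rose by 3.11 ± 0.29 in CD41-negative HSC (adjusted p = 0.000199), was 1.58 ± 0.36 in CD41-positive HSC (adjusted p = 0.0604), and had an interaction of -1.53 (-2.51 to -0.56; -1.27 without WT libraries 1 and 3). Jam3, a junctional adhesion molecule, fell by 1.0 ± 0.20 in CD41-positive HSC, with -0.27 ± 0.18 in CD41-negative HSC and an interaction of -0.73 (-0.52 without those libraries). The chemokine Cxcl12 stood at 32.7 and 15.6 CPM in WT CD41-positive libraries and at no more than 2.24 CPM in any other. It is also on the list of endothelial and stromal markers.

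**Figure D5:**
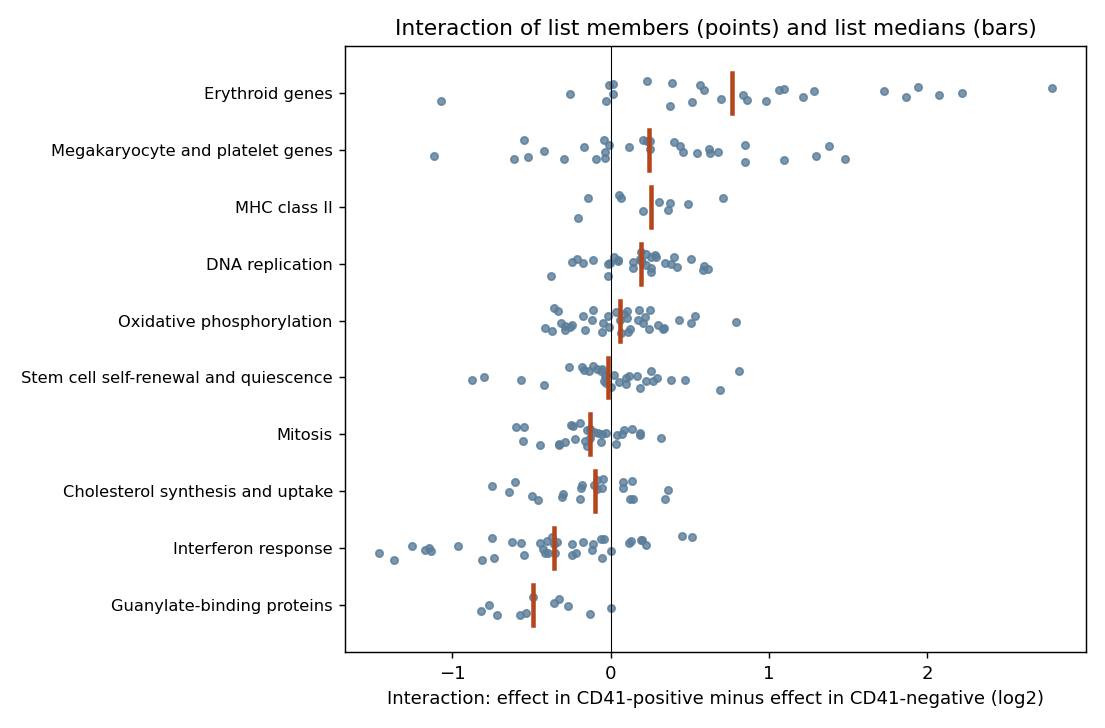
Interaction (log2, effect in CD41-positive minus effect in CD41-negative HSC, x axis) of each tested member of 10 gene lists (points, jittered vertically) with the list median (bars), fitted on all 11 libraries. The erythroid median is 0.77 and that of the guanylate-binding proteins -0.49, while the mitosis median of -0.13 turned positive without WT CD41-negative libraries 1 and 3.

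The same genes were read in the undivided long-term HSC gate and in megakaryocyte progenitors, which were prepared with another library protocol, so the values stand side by side without a comparison. All 3 V617F long-term HSC libraries were labelled male and all 3 WT ones female, so genotype and sex cannot be told apart in them, while the megakaryocyte progenitor libraries were all female. Over both populations the WT libraries detected 11483 to 13805 genes and the V617F ones 14634 to 15697. Genotype and the number of genes detected thus cannot be told apart in either population. Igf2bp2 had a V617F minus WT change of -0.39 ± 1.41 in long-term HSC and 0.16 ± 1.41 in megakaryocyte progenitors. Prtn3 had -0.78 ± 0.44 and -1.28 ± 0.44, and Anxa2 -0.86 ± 0.44 and -1.11 ± 0.44. Klf1 had -2.28 ± 0.57 and -1.47 ± 0.55. None of these 8 changes passed. Car1, shared between the CD41 fractions, fell in both populations, with changes of -6.38 ± 0.98 (adjusted p = 0.0376) and -4.91 ± 0.88 (adjusted p = 0.0198).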

How the data were processed

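RNA-seq libraries of sorted CD41-negative and CD41-positive HSC, made with SMART-Seq v4 and Nextera XT per the labels, were compared. The values are read counts, whole numbers for 24454 genes by Entrez identifier, in 1 deposited table. Alignment with STAR 2.5.2a to mm10, R 3.4.2 and limma are named in the submitters' processing notes, while how reads were counted, and on which annotation, is not given in the sources used here. A column of gene lengths in the deposited table was not used.

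Counts of the 11 libraries were fitted together by edgeR 4.0.16 (R 4.3.3). TMM scaling was used, filterByExpr kept 14467 genes, each group had its own mean, and contrasts were tested by quasi-likelihood F tests. The interaction is the V617F minus WT contrast of CD41-positive HSC minus that of CD41-negative HSC. P-values were adjusted by Benjamini-Hochberg over all genes of a contrast at 0.05. Levels are CPM on the TMM-scaled total, and standard errors and 95% intervals come from the same fit. Agreement means passing in both fractions in the same direction with the interaction's interval within 1 on the log2 scale. With 2 or 3 libraries a group, small differences were not detectable. Other library protocols of the series were fitted apart.

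The comparison, members and the 25 gene lists were chosen with earlier results of these data known. Named genes were up to 8 per direction with the smallest interaction p (none passed). Also named were the 8 per direction with the largest lesser change among shared calls. To these came 6 of opposite sign and the 4 shared calls with the narrowest interval. Predicted genes, pseudogenes, X or Y genes and means under 10 CPM were left out of these. The 3 list members with the smallest interaction p and a fixed set were named without those exclusions. Alternatives were DESeq2 1.42.0, limma-voom (limma 3.58.1) without and with sample weights, RLE factors, other filters, sex, replicate number, and each library left out. Omission of WT CD41-negative libraries 1 and 3, and all counts at an unadjusted p, were chosen after seeing the data. Aqp1, Bcl6, Blvrb, Id1, Osm, S100a8 and the other-cell markers C1qa, C1qc, Adgre1, Ms4a6c, Gfi1, Ms4a3, Lyz2, Pecam1, Col1a2, Cdh5 and Cd3e lie outside the naming rule and were chosen after their values were seen.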

Additional observations from a re-analysis of the deposited data

How the results depend on the processing

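The count of interactions that passed was 0 in the fit reported and also 0 with RLE factors, without a filter, with a filter of 5 CPM in 3 libraries, with limma-voom, with sex as a covariate, without the male libraries, without X and Y genes and without WT CD41-negative libraries 1 and 3. It was 6 with DESeq2 and 496 with sample weights, and 0 to 1766 over single libraries left out, the last without WT CD41-negative library 4. The count at an unadjusted p under 0.05 (1274) was 3664 with sample weights, 514 to 4208 over single libraries left out (WT CD41-positive 3 and WT CD41-negative 4) and 542 without WT CD41-negative libraries 1 and 3. Calls in CD41-negative HSC (1941) came to 3380 with DESeq2, 3964 with sample weights, 366 without the male libraries, 145 without WT CD41-negative libraries 1 and 3, and 282 to 6021 over single libraries left out (V617F CD41-negative 3 and WT CD41-negative 4). Calls in CD41-positive HSC (168) came to 262 without a filter, 455 with DESeq2, 1854 with sample weights, 380 without WT CD41-negative libraries 1 and 3, and 32 to 225 over single libraries left out, the lowest without WT CD41-positive library 3. Shared calls (129) came to 301 with DESeq2, 760 with sample weights, 83 without WT CD41-negative libraries 1 and 3 and 30 to 170 over single libraries left out, and those within a 2-fold difference (40) to 61 without a filter, 129 with DESeq2, 479 with sample weights, 65 with sex as a covariate and 3 to 66 over single libraries left out (the lowest without WT CD41-positive library 4). The cause of these shifts was not tested.

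Same-numbered libraries of the 2 fractions varied together in V617F and hardly in WT, so the numbers were not taken to pair all samples. Residuals correlated across genes at 0.301, 0.419 and 0.298 for V617F libraries 1, 2 and 3, and at 0.0429 and 0.0242 for WT libraries 3 and 4. In all 5 pairs the CD41-negative library correlated best with its own number, a hint from the data and not from the labels. The residuals of the 2 WT CD41-positive libraries mirror each other, so for WT only the sign of a value near 0 decided this. WT CD41-negative library 1 has no CD41-positive partner, so a fixed block takes it out of the interaction. With the replicate block as a fixed term 0 interactions passed and 1251 had an unadjusted p under 0.05, and as a random term 0 and 1796, with 2236 calls in CD41-negative HSC, 124 in CD41-positive HSC and 103 shared. In edgeR's fit with the fixed block, 19 of 120 named genes newly had an unadjusted p under 0.05 for the interaction, among them Cish (unadjusted p = 0.0195), Podxl (0.0161), Tjp1 (0.0213) and Car1 (0.0349), and 8 no longer did. For single genes named by the rule 69 values no longer passed and 86 newly passed, of 3623 under alternatives. Another 33 moved by their standard error or more, counted only among interactions with an unadjusted p of 0.05 or more in the fit reported. Shifts of other values were not counted unless a call changed. Mir6236, at 3.63 ± 0.98 and at 0.20 without WT CD41-negative libraries 1 and 3, is 1 of those not counted. The sign turned for 62 values, all of them interactions, in 18 genes whose interaction had an unadjusted p of 0.05 or more in the fit reported. Examples are Car1 (0.86, and -0.41 with sample weights) and Meg3 (0.34, and -0.22 without WT CD41-negative libraries 1 and 3).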
